A study of Mus musculus with 8 samples.

Results

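The windows described here cover the promoters of protein-coding genes in mouse embryonic stem cells (ESCs). Methylation was compared in overlapping windows of 250 bp, and a window was counted as a promoter window when its centre lay within 1000 bp of the nearest annotated transcription start site (TSS) and that start belonged to a protein-coding gene. Of 54235 windows listed in at least 1 of 4 comparisons, 35854 (66.1%) were promoter windows, at 10637 genes. No methylation value entered this choice. Upstream windows numbered 13559, and 22295 were centred on or downstream of the start. A gene had a median of 3 promoter windows.

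DNA of the E14Tg2a ESC line was enriched for regulatory regions and sequenced after bisulphite conversion. The 4 groups were YAP KD at T4, YAP KD at T0, CTR KD at T4 and CTR KD at T0, with 2 independent experiments each. YAP KD cells were transiently transfected with siRNAs against mouse YAP, and CTR KD cells with scrambled siRNAs, so all cells had been transfected. T0 cells were undifferentiated, and T4 cells had been driven for 4 days towards neuroectoderm. Since the knockdown was transient, YAP KD at T4 names cells with an earlier loss of YAP. A change in the methylation of cells and a change in the mix of cells cannot be told apart in such bulk DNA.

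In mammals most promoters of housekeeping and developmental genes lie in CpG islands, stretches rich in the dinucleotide CpG that generally stay free of methylation. Promoters with few CpGs, and a set of germline gene promoters, are often methylated in somatic cells, where methylation accompanies silencing. Imprinted promoters carry methylation on the allele of a single parent. During exit from pluripotency the enzymes Dnmt3a and Dnmt3b, helped by Dnmt3l, place new methylation, and YAP is a transcriptional co-activator held in check by the Hippo pathway.

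Windows from among those with the largest changes, outside repeated sequence, are shown first. They are examples and do not stand for all losses or gains. Each run is read 5′ to 3′ on the strand of its gene from the mm9 genome (NCBIM37), with every CpG in capitals, and annotated untranslated exon sequence was left out. The first 3 lost methylation over differentiation, the next 4 gained it, and the last differed most between YAP KD and CTR KD cells.
Slc26a5, chr5:21352751-21353000, minus strand: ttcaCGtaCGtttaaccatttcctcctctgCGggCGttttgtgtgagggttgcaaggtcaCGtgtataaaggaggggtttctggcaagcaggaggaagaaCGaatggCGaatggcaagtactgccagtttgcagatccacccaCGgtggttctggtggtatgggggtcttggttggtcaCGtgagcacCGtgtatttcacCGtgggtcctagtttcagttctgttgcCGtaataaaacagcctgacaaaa
Gm13212, chr4:145174876-145175068, plus strand: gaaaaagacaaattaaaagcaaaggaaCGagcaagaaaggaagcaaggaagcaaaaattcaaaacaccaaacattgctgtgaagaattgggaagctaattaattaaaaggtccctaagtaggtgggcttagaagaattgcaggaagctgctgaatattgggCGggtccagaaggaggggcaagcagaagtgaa
Catsperg1, chr7:29996876-29997125, minus strand: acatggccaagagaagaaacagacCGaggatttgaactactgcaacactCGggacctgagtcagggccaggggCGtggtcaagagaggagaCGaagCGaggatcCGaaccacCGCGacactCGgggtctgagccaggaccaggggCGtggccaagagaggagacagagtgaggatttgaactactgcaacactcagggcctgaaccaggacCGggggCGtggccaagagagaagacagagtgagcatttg
Sall4, chr2:168581376-168581625, minus strand: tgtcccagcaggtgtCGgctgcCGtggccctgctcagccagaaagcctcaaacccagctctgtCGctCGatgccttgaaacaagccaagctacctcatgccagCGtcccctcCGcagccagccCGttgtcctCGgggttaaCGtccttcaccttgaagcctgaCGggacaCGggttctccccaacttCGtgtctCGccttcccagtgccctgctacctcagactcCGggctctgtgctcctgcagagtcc
Tpi1, chr6:124762376-124762625, minus strand: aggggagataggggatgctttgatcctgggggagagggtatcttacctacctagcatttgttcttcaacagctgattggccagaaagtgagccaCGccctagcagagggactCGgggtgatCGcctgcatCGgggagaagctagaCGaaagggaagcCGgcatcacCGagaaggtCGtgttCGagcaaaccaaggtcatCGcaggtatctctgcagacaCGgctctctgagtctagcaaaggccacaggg
Ybx1, chr4:118951573-118951750, minus strand: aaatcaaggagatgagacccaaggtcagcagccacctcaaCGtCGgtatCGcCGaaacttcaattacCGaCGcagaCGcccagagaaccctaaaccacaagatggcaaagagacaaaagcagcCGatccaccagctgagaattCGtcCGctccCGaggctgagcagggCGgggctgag
Wdfy3, chr5:102366251-102366500, minus strand: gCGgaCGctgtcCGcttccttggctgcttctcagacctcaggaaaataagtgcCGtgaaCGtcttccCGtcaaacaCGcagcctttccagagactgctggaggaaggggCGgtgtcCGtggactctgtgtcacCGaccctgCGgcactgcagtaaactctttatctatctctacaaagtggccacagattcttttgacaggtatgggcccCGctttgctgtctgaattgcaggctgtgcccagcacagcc
Gnas, chr2:174122876-174123125, plus strand: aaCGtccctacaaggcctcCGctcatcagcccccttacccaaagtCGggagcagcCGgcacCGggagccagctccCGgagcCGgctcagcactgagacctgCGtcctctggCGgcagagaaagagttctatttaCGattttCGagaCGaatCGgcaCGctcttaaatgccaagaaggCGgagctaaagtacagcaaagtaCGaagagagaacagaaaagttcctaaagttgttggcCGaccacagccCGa
The Slc26a5 run is an intron of the gene for prestin, the motor protein of outer hair cells, and was centred 274 bp downstream of an internal start. The Gm13212 run is 193 bp of the window at the 5′ end of a predicted gene and held 2 CpGs. The Catsperg1 run lies in an intron of a gene for a sperm calcium channel subunit, 487 bp upstream of an internal start, and held 12 CpGs. All of the 4 runs that gained methylation come from windows called coding exon: Sall4 (a zinc finger factor of pluripotent cells), Tpi1 (a glycolytic enzyme), Ybx1 (an RNA-binding protein) and Wdfy3 (an autophagy scaffold), with 11 to 14 CpGs in the runs shown. The Gnas run, with 18 CpGs, lies in an intron of the imprinted gene for the stimulatory G protein alpha subunit. The shares of windows that hold 4 short motifs were counted. The letters GGAATG, bound by TEAD factors, the partners of YAP, were present on either strand in 9.72% of all promoter windows, in 9.71% of windows lost in YAP KD cells and in 8.85% of those lost in CTR KD cells. The letters CACGTG, an E-box, were in 7.68% of promoter windows, in 7.12% of those lost in YAP KD cells and in 8.41% of those lost in CTR KD cells. The shares for GCGGGAA, an E2F6 motif, were 7.57% of all promoter windows, 5.83% of YAP KD losses and 3.98% of CTR KD losses. TGCCGC, the letters recognised by ZFP57 at imprinted regions, stood in 17.2% of all promoter windows, in 14.6% of YAP KD losses and in 12.8% of CTR KD losses. A match is a string of letters and not evidence of binding.

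Throughout, a value in points is the methylation difference in percentage points in the authors' deposited tables, T4 minus T0 for differentiation and YAP KD minus CTR KD for the knockdown. The signs of the 4 tables fit each other, but their shared direction follows the study's description, since the table headers do not state it. The tables carry neither sample values nor methylation levels nor depth, so the spread between the 2 experiments of a group could not be shown and no test across replicates was possible. The error given after each value is a standard error (SE) derived from the deposited p-value. It covers the error in that p-value and not the spread between experiments. Windows whose q did not exceed 0.05 and whose difference was over 10 points were called differentially methylated regions (DMRs). Neighbouring windows overlap, so their counts are not independent.

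The label was set against the base composition of the windows. Promoter windows held a median of 17 CpGs and 60.8% G+C, and the other windows 13 CpGs and 57.2% G+C. By the base composition around the start, 30644 windows (85.5%) belonged to high-CpG promoters, 5047 (14.1%) to intermediate and 163 (0.455%) to low-CpG promoters. The starts were not all 5′ ends of genes. Within 1000 bp of the gene's 5′ end lay 31420 windows, and the other 4434, at 1663 genes, were near an internal start, that is a start annotated for a shorter transcript within the gene. Introns held 32.9% of promoter windows, intergenic sequence 25.7%, untranslated exons 21.1% and coding exons 18%.

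Few promoter windows changed over differentiation, and most that did lost methylation. In YAP KD cells 335 of 28273 promoter windows (1.18%) were DMRs, against 3.85% of all windows in that table. In CTR KD cells 280 of 30947 promoter windows (0.905%) were DMRs, against 3.17% of all windows. YAP KD cells lost methylation at 309 promoter windows (1.09%; 3.35% of all windows) and gained it at 26 (0.092%; 0.505% of all windows). CTR KD cells lost it at 226 (0.73%; 2.21% of all windows) and gained it at 54 (0.174%; 0.958% of all windows). The gain share of promoter DMRs was thus 7.76% in YAP KD cells and 19.3% in CTR KD cells. Over all windows, gains were 216 of 1647 DMRs in YAP KD and 446 of 1477 in CTR KD cells. The lower share in YAP KD cells was therefore not particular to promoters. Exact Clopper-Pearson 95% intervals of the promoter shares were 5.13 to 11.2% and 14.8 to 24.4%. They treat overlapping windows as independent and hold no spread between experiments, so they do not test a difference between knockdowns. The median absolute change of a promoter window was 0.422 points in YAP KD cells and 0.416 points in CTR KD cells, against 1.5 and 1.37 points in the other windows of the same tables. The derived SE was also smaller at promoters, with a median of 0.507 points in YAP KD and 0.503 points in CTR KD differentiation, against 1.05 and 1.01 points in the other windows.

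Promoter DMRs were sparsest next to the start and more frequent towards either edge. In YAP KD cells the share of windows that were DMRs was 4.43% at 750 to 1000 bp upstream, 1.09% at 500 to 750 bp, 1.26% at 250 to 500 bp and 0.815% within 250 bp upstream. Downstream of the start the share in YAP KD cells was 0.809% within 250 bp, 1.09% at 250 to 500 bp, 1.9% at 500 to 750 bp and 3.17% at 750 to 1000 bp. In CTR KD cells the upstream shares, from the far to the near side, were 3.27%, 1.09%, 0.698% and 0.542%, and the downstream shares, from the near to the far side, were 0.539%, 0.905%, 1.79% and 2.83%. The farthest upstream bin held few windows, 451 in the YAP KD table and 490 in the CTR KD table. In it YAP KD cells had 20 losses and 0 gains, and CTR KD cells 12 losses and 4 gains. Distance runs to the nearest start, so this bin also holds windows inside genes. All of the 4 gains, at Gtf2i, Daxx and Lipe, were near internal starts, as were some losses, such as those at Dux and Hoxd3. Over all distances, upstream windows were DMRs in 1.1% of cases in YAP KD cells and 0.744% in CTR KD cells, and downstream windows in 1.24% and 1%. The median number of CpGs also varied with distance, being 13 in the farthest upstream bin, 19 in the bin just downstream of the start and 14 in the farthest downstream bin of both tables. The part of CpG number in the distance pattern was not tested. The limit of 1000 bp did not mark a step. Windows centred 900 to 1000 bp from a coding start were DMRs in 3.98% of 578 cases in YAP KD cells and 3.63% of 606 in CTR KD cells, and those centred at 1000 to 1100 bp in 3.31% of 483 and 3.21% of 529 cases.

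**Figure D1:**
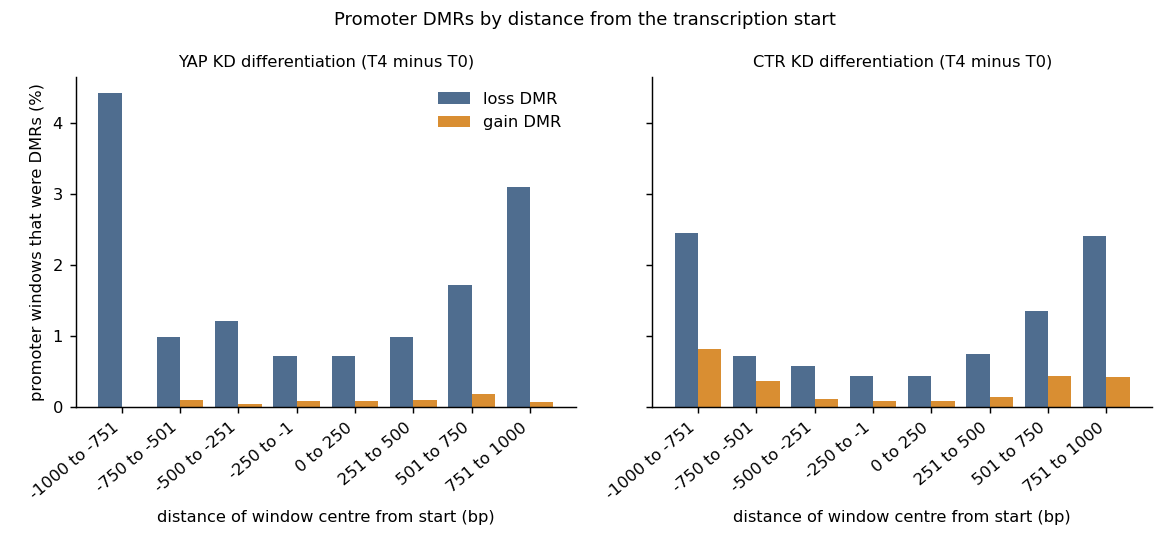
Percentage of promoter windows that were loss DMRs (blue) and gain DMRs (orange) by distance of the window centre from the nearest start, in YAP KD (left) and CTR KD (right) differentiation. Losses made up 4.43% of windows in the farthest upstream bin in YAP KD cells and 2.45% in CTR KD cells, and were lowest within 250 bp of the start.

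The share of DMRs also varied with the CpG class of the promoter and with the kind of start. At high-CpG promoters 0.645% of windows in YAP KD cells were DMRs, against 3.8% at intermediate and 22.3% of 130 at low-CpG promoters. In CTR KD cells these shares were 0.486%, 3.03% and 16.7% of 126. Windows at internal starts were DMRs in 3.17% of cases in YAP KD and 2.54% in CTR KD cells, and windows at gene 5′ ends in 0.916% and 0.677%. At the 5′ ends of high-CpG promoters YAP KD cells had 112 losses, at 77 genes, and 0 gains among 21652 windows. At the same kind of window CTR KD cells had 89 losses, at 65 genes, and 4 gains among 23656 windows. Those 4 gains lay at 3 genes, named here after their values were seen. Actg1 (cytoplasmic gamma-actin) was at 13.6 ± 1.68 points and Slc1a4 (a neutral amino acid transporter) at 12.4 ± 2.27 points. Arl6ip5 was at 11 ± 1.16 points. With YAP KD the same windows rose too, but by less than 10 points. Actg1 rose by 9.84 ± 1.64 points, and by 6.57 ± 1.42 points in its other window of this class. A further Actg1 window, of the intermediate class and in repeated sequence, overlaps the former and went the other way. It gained 18.1 ± 2.29 points in YAP KD and 11.2 ± 2.33 points in CTR KD cells. Slc1a4 rose by 5.7 ± 2.16 points and Arl6ip5 by 4.68 ± 1.38 points. The unequal counts of gains thus rest on the limit of 10 points, and only Arl6ip5 passed the z test described below.

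Gains were concentrated in coding exons near internal starts. This class made up 2.96% of promoter windows in the YAP KD table and 2.93% in the CTR KD table. It held 13 of the 26 gains of YAP KD cells, at 11 genes, and 31 of the 54 gains of CTR KD cells, at 23 genes. Within the class, 1.56% of windows gained and 4.19% lost methylation in YAP KD cells, and in CTR KD cells the shares were 3.41% and 3.08%. With windows at gene 5′ ends alone, a choice made after seeing the data, the gain share was 3.51% in YAP KD cells (8 of 228 DMRs) and 8.7% in CTR KD cells (16 of 184). Windows that gained methylation also had fewer CpGs, a median of 12.5 in YAP KD and 12 in CTR KD cells, against 17 over promoter windows. Losses had a median of 12 CpGs in both. Coding exons of any start held 61.5% of gains and 31.4% of losses in YAP KD cells, against 17.9% of promoter windows. In CTR KD cells they held 70.4% of gains and 35% of losses, against 18%.

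**Figure D2:**
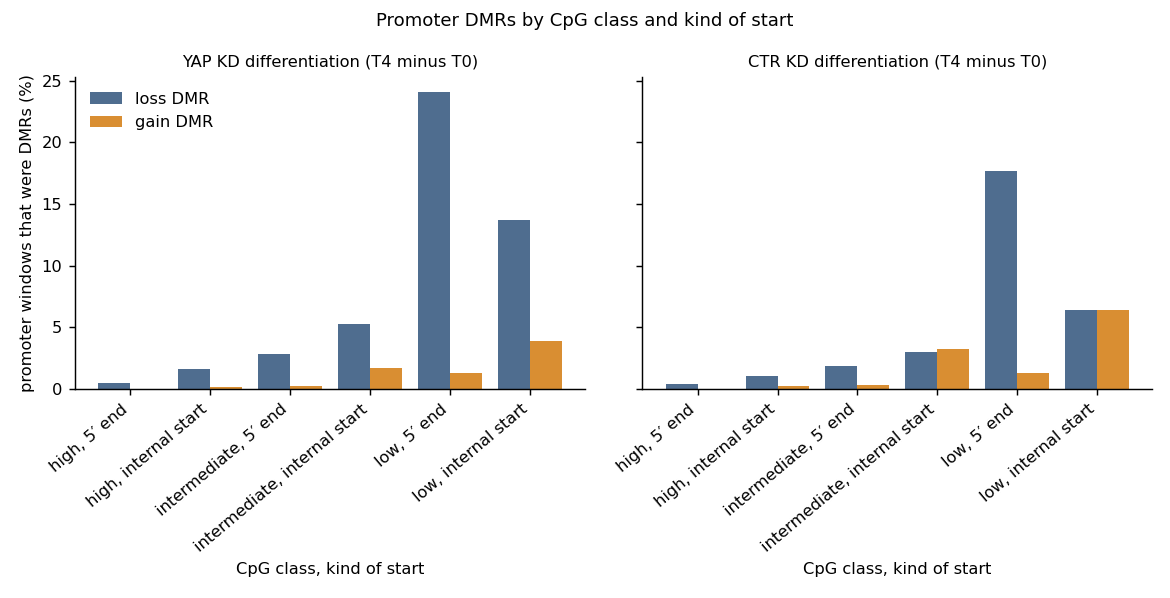
Percentage of promoter windows that were loss DMRs (blue) and gain DMRs (orange) by CpG class and by whether the window was within 1000 bp of the gene's 5′ end, in YAP KD (left) and CTR KD (right) differentiation. Windows of low-CpG promoters at gene 5′ ends lost methylation in 24.1% of cases in YAP KD and 17.7% in CTR KD cells, each from 79 windows.

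Most promoter DMRs were losses between the undifferentiated and the differentiated state. Merged over touching windows, the losses formed 226 regions at 217 genes in YAP KD cells and 164 regions at 157 genes in CTR KD cells. Several led in both. The window of Gm13212 printed above fell by 32.4 ± 1.92 points in YAP KD cells and by 27 ± 1.9 points in CTR KD cells. Around its start 4 touching windows, of which the other three are repeated sequence, changed by -32.4 to -23 points in YAP KD cells and by -27 to -18.9 points in CTR KD cells. Gm13157, another predicted gene on chromosome 4, changed by -27.6 ± 1.59 points in YAP KD and -23.1 ± 1.55 points in CTR KD cells at its start, in repeated sequence. Vnn1, which encodes the enzyme pantetheinase, changed by -26.2 ± 2.97 points in YAP KD and -26.5 ± 2.96 points in CTR KD cells, within a coding exon 382 bp downstream of the start (chr10:23614751-23615000). At Catsperg1 the change differed along the gene. Between 612 and 112 bp upstream of its internal start the windows changed by -25.6 to -18 points in YAP KD cells and by -27.9 to -8.44 points in CTR KD cells. At the 5′ end of the same gene, in the window centred 2 bp from the start, the change was 0.107 ± 0.694 points in YAP KD and 1.16 ± 0.613 points in CTR KD cells. A repeated window 377 bp downstream of that start had -3.9 ± 2.04 points in YAP KD and -4.87 ± 1.84 points in CTR KD cells, below the DMR limit, and the windows listed between it and those of the internal start lie over 1000 bp from either start and were not members.

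Other losses were larger in YAP KD cells. The Slc26a5 window changed by -33.7 ± 2.44 points in YAP KD and -17.4 ± 2.29 points in CTR KD cells. Fkbp6, a co-chaperone needed in male germ cells, changed by -29.9 ± 2.32 points in YAP KD and -14.8 ± 2.34 points in CTR KD cells in a window centred 106 bp upstream of its 5′ end (chr5:135825876-135826125). Its overlapping neighbour across the start had -29.4 ± 2.98 points in YAP KD and -12.4 ± 2.8 points in CTR KD cells. Slc4a5, a bicarbonate transporter, had -24.7 ± 3.14 points in YAP KD and -6.56 ± 3.23 points in CTR KD cells at an internal start. The YAP KD minus CTR KD differences at T0 and T4 nearly restate the gap between the YAP KD and CTR KD changes and are not a separate result. At T0 and T4 these were 11.1 ± 2.44 and -5.22 ± 2.17 points at Slc26a5. They were 7.87 ± 2.29 and -7.12 ± 2.24 points at the upstream Fkbp6 window. At Slc4a5 they were 8.69 ± 3.53 and -9.45 ± 2.78 points. Only the Slc26a5 difference at T0 was a DMR. The Slc4a5 difference at T4 had a q under 0.05 but was under 10 points, and the others had a q over 0.05. Of the remaining leading losses in YAP KD cells, windows at Itgad (an integrin alpha subunit, -27.6 ± 3.89 points), Fgfr2 (a fibroblast growth factor receptor, -26.4 ± 3.23 points) and Kcnd3 (a potassium channel, -25.7 ± 3.42 points) were not listed in the CTR KD table.

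In CTR KD cells the leading losses also included developmental genes. Pax5, a B cell and midbrain factor, had -23.2 ± 2.47 points in YAP KD and -24.2 ± 2.13 points in CTR KD cells near an internal start. Hoxb4 had -22.5 ± 3.3 points in YAP KD and -22.8 ± 3.42 points in CTR KD cells, 253 bp downstream of its start. Nefm, the medium neurofilament chain, had -8.08 ± 2.62 points in YAP KD and -24 ± 2.81 points in CTR KD cells, 902 bp downstream of its start. The YAP KD minus CTR KD difference at Nefm was -10.7 ± 3.04 points at T0 and 3.53 ± 2.24 points at T4, neither a DMR. Slc6a5, a glycine transporter of neurons, had -12.7 ± 2.57 points in YAP KD and -20.9 ± 2.62 points in CTR KD cells. Dux, a factor of the cleavage-stage embryo that lies in a repeated array, had -22.6 ± 1.45 points in YAP KD and -23.7 ± 1.4 points in CTR KD cells. The window of 4930433N12Rik, at -26.5 ± 3.16 points in CTR KD cells, was not listed in the YAP KD table.

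The leading window lay in a coding exon at 8 of the 10 genes with the largest gains in YAP KD cells and at 8 of 10 in CTR KD cells. Tpi1 gained 20.4 ± 1.8 points in YAP KD and 20.2 ± 1.92 points in CTR KD cells at the window printed above (chr6:124762376-124762625), and its overlapping neighbour gained 17.6 ± 1.91 points in YAP KD and 17.8 ± 2.06 points in CTR KD cells. Ybx1 gained 19.8 ± 2.22 points in YAP KD and 23.1 ± 2.21 points in CTR KD cells, 429 bp from an internal start that belongs to no coding transcript. Around the 5′ end of Ybx1 the windows listed in both tables changed by less than 1 point in YAP KD and in CTR KD cells. Sall4 gained 22 ± 2.8 points in YAP KD and 13.2 ± 2.98 points in CTR KD cells, within a coding exon, while a window near its 5′ end changed by 0.244 ± 0.412 points in YAP KD and 0.761 ± 0.354 points in CTR KD cells. Wdfy3 gained 13.7 ± 2.76 points in YAP KD and 21.3 ± 2.83 points in CTR KD cells, and an adjoining window listed in the CTR KD table gained 23.1 ± 3.28 points. Tra2b, a splicing factor, gained 12.1 ± 2.2 points in YAP KD and 25.4 ± 2.34 points in CTR KD cells, in repeated sequence. Ppp1r15a, a stress-induced phosphatase subunit, gained 14.3 ± 1.69 points in YAP KD and 13.7 ± 1.48 points in CTR KD cells. Kifc1, a mitotic kinesin, gained 18.9 ± 3.24 points in YAP KD and 11.8 ± 3.16 points in CTR KD cells, and Actg1 18.1 ± 2.29 and 11.2 ± 2.33 points, both in repeated sequence. Pik3r2, a phosphoinositide 3-kinase subunit, had 13 ± 1.81 points in YAP KD and 9.83 ± 1.68 points in CTR KD cells. Outside coding exons, the YAP KD gains in this set were Commd1, given further on, and Tcl1, a co-activator of the kinase Akt that is high in naive ESCs. The Tcl1 window spans the annotated 5′ end (chr12:106460751-106461000) and had 13 ± 1.42 points in YAP KD and 9.86 ± 1.27 points in CTR KD cells. In CTR KD cells the leading gains further included Snrk (a kinase, 21.5 ± 3.79 points, repeated) and Lipe (hormone-sensitive lipase, 14.9 ± 2.52 points), neither listed in the YAP KD table. Fndc7 had 6.98 ± 1.65 points in YAP KD and 19.2 ± 1.7 points in CTR KD cells, Gtf2i 7.7 ± 2 and 14.9 ± 2.5 points, and Myo10, an unconventional myosin, 6.22 ± 2.09 and 14.7 ± 2.07 points.

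**Figure D3:**
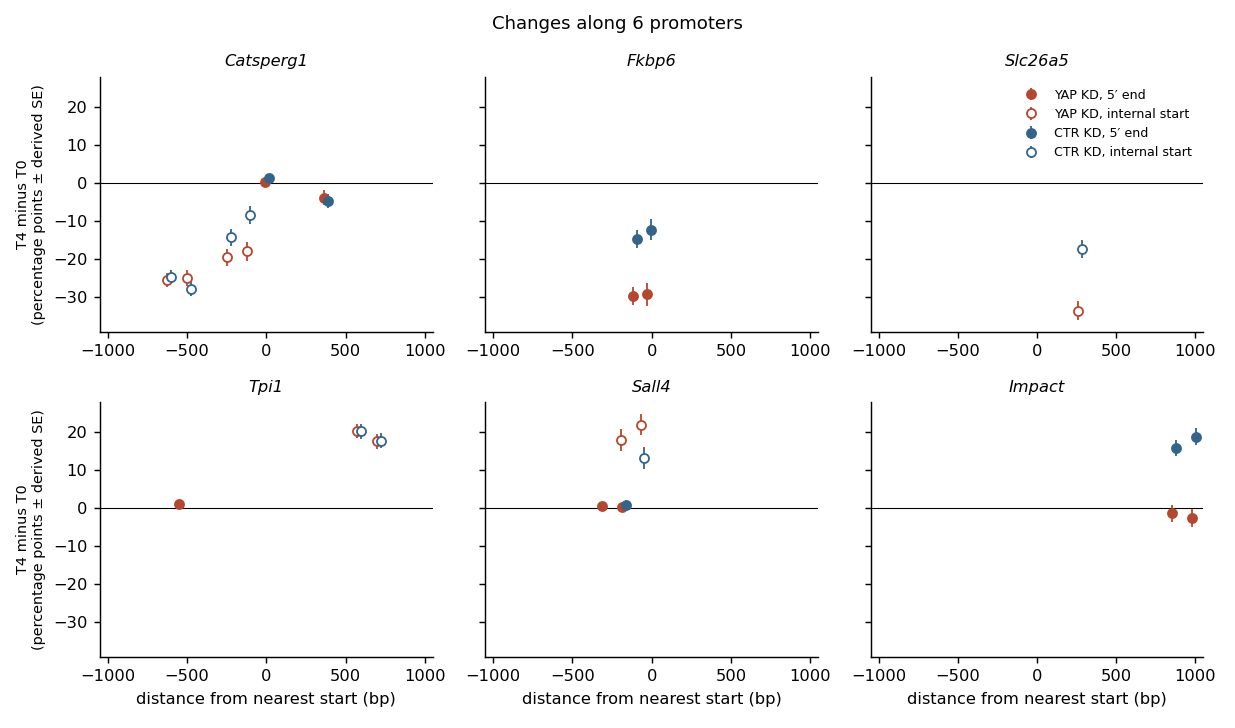
Change over differentiation (T4 minus T0, percentage points, with derived SE) of the promoter windows of 6 genes against the distance from each window's own nearest start, in YAP KD (red) and CTR KD (blue) cells, shifted slightly apart. Filled points lie within 1000 bp of the gene's 5′ end and open points near an internal start, so windows of different starts share an axis. Catsperg1, Fkbp6 and Slc26a5 lost methylation, Tpi1 and Sall4 gained it near internal starts, and Impact had opposite signs in YAP KD and CTR KD cells.

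Gene groups with a known role were described by their promoter windows. Over all genes with a promoter window, 2.3% of 9428 genes had a loss and 0.191% a gain in YAP KD cells, and 1.59% of 9903 genes had a loss and 0.364% a gain in CTR KD cells. Germline genes that methylation keeps silent had losses at 6 of 22 genes in YAP KD and 7 of 23 in CTR KD cells, and 0 gains. Besides Fkbp6 and Catsperg1 they included Sohlh2, an early germ cell factor, at -21.5 ± 3.27 points in YAP KD and -20.8 ± 3.06 points in CTR KD cells, and Stra8, the inducer of meiosis, at -18.2 ± 2.21 and -13.7 ± 1.94 points. The Catsperg1 and Stra8 windows are near internal starts. Hox genes had losses at 5 of 32 in YAP KD and 4 of 34 in CTR KD cells. Among them were Hoxa7 (-21.9 ± 2.87 points in YAP KD and -20.2 ± 2.75 points in CTR KD cells) and Hoxd3 (-20.8 ± 2.19 and -20.7 ± 2.2 points), both near internal starts. The 2 windows at the 5′ end of Hoxd3 listed in both tables had 1.24 and 1.33 points in YAP KD cells and 0.679 and 0.786 points in CTR KD cells. Neural genes had losses at 3 of 30 in YAP KD cells (Pax5, Emx1 and Zic4) and 2 of 31 in CTR KD cells, and mesoderm and endoderm genes at 2 of 22 in YAP KD and 2 of 24 in CTR KD cells (Hand1 and Lhx1). Of these, the Pax5, Zic4 and Lhx1 windows are near internal starts. Cadherins and protocadherins had losses at 3 of 18 in YAP KD and 2 of 17 in CTR KD cells, with Cdh11, a mesenchymal cadherin, at -12.7 ± 2.34 and -20.2 ± 2.06 points. Trophoblast genes had losses at 2 of 13 in YAP KD and 1 of 15 in CTR KD cells. The X-linked germline clusters had losses at 0 of 3 in YAP KD and 2 of 4 in CTR KD cells, both in repeated sequence, and the two-cell-like genes at 1 of 2 in each, which was Dux. Several of these lists share members or were drawn up around genes known to change here, and the counts are descriptions.

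Among groups tied to pluripotency, naive and core pluripotency genes had gains at 2 of 17 (11.8%) in YAP KD cells (Sall4 and Tcl1) and at 1 of 20 (5%) in CTR KD cells (Sall4), against 0.191% and 0.364% of all genes, and 0 losses. The unequal counts rest on the limit of 10 points, since Tcl1 had 9.86 ± 1.27 points in CTR KD cells. Neither gene's difference between YAP KD and CTR KD change passed the z test described below. The Sall4 window lies in a coding exon near an internal start. In the next 4 groups DMRs numbered 0 or 1 a comparison, which at the shares over all genes is no result about them. Formative epiblast genes had no DMR in either direction among 13 genes in YAP KD and 13 in CTR KD cells. The DNA methylation writers, erasers and guides had none among 21 in YAP KD and 23 in CTR KD cells. Hippo pathway genes and YAP targets had none among 17 in YAP KD and 21 in CTR KD cells, and Wnt pathway genes had a loss at 1 of 48 and 1 of 47, Rnf43 in both. Housekeeping genes had gains at 2 of 33 in YAP KD and 2 of 35 in CTR KD cells, Tpi1 and Ybx1 in both. For Nanog and Lin28a no promoter window was listed. The Dnmt3l window, spanning an internal start, had 4.27 ± 1.16 points in YAP KD and 4.37 ± 1.05 points in CTR KD cells, below the DMR limit. Dnmt3b had 3 intron windows downstream of its 5′ end, at -1.3 to -0.54 points in YAP KD cells and -0.248 to 0.0534 points in CTR KD cells. The Dnmt3a window listed in both tables had -0.167 ± 0.408 points in YAP KD and 0.459 ± 0.534 points in CTR KD cells. Yap1 itself had 3 windows, at 0.199 to 0.435 points in YAP KD and -0.66 to 1.52 points in CTR KD cells.

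Setting the differentiation of YAP KD cells beside that of CTR KD cells asks whether an earlier loss of YAP altered promoter remodelling. These 2 comparisons share no library. In the 25623 promoter windows listed in both, the changes correlated across windows with Pearson's r = 0.781 and Spearman's rho = 0.313, as a description over windows that overlap and share libraries. Over all 38597 windows listed in both, promoter or not, r was 0.799 and rho 0.488. Losses common to both numbered 147, which was 55.9% of the 263 losses of YAP KD cells and 79.5% of the 185 of CTR KD cells in these promoter windows. Over all windows these shares were 52.4% and 77.5%. Common gains numbered 12, which was 54.5% of 22 gains in YAP KD and 27.3% of 44 in CTR KD cells, against 73.7% and 36.8% over all windows. No promoter window was a gain DMR in YAP KD cells and a loss DMR in CTR KD cells, or the reverse. Of the 355 promoter windows that were DMRs in either, 255 had the lower (more negative) change in YAP KD cells, with a median difference of -2.69 points. Among all windows it was 1337 of 1844, with a median difference of -3.57 points. Over all 25623 promoter windows the median difference was -0.0849 points, and over all windows -0.154 points.

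The difference between the YAP KD and the CTR KD change was tested in each window by a z test with the derived SEs, adjusted by Benjamini-Hochberg over all windows. It passed an adjusted p of 0.05 at 149 of 25579 promoter windows (0.583%), at 121 genes, against 1.29% of all windows. The YAP KD change was the lower at 108 promoter windows (0.422%; 1.08% of all windows) and the higher at 41 (0.16%; 0.205% of all windows). The difference of changes nearly equals the YAP KD minus CTR KD difference at T4 less that at T0, so part of it can already lie at T0. The differences of changes named below passed the z test unless stated otherwise. These calls rest on SEs that hold no spread between experiments. With the SEs doubled, 0 promoter windows passed, and 0.176% of promoter windows passed at an adjusted p of 0.01. Of the 149 windows, 73 differed by under 5 points and 35 by over 10 points.

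Several of the largest differences lay at imprinted genes. Of 35 imprinted genes tested, 6 had a promoter window with the lower change in YAP KD cells (17.1%) and 3 with the higher (8.57%), against 0.964% and 0.404% of all 8917 genes tested. Over differentiation, imprinted genes had losses at 4 and a gain at 1 of 36 in YAP KD cells, and a loss at 1 and gains at 2 of 36 in CTR KD cells. Imprinting was in view from earlier results when the list was drawn up, so these counts are descriptions. Gnas had -9.69 ± 3.32 points in YAP KD and 13.1 ± 3.5 points in CTR KD cells at the printed window, a difference of -22.8 ± 4.83 points. That window is near an internal start. At other internal starts of Gnas, windows listed in both had -7.8 to -0.254 points in YAP KD and -6.71 to 0.4 points in CTR KD cells. None of those passed the z test. Impact, a regulator of translation on chromosome 18, had -2.68 ± 2.33 points in YAP KD and 18.8 ± 2.2 points in CTR KD cells 990 bp downstream of its start, a difference of -21.5 ± 3.2 points. The overlapping window had -1.42 ± 2.18 points in YAP KD and 15.8 ± 2.14 points in CTR KD cells. Peg10, a retrotransposon-derived gene of the placenta, had -13.6 ± 2.78 points in YAP KD and 7.12 ± 2.48 points in CTR KD cells 445 bp downstream of its start (chr6:4697626-4697875), a difference of -20.7 ± 3.73 points. The next window along, which overlaps it, had -3.6 ± 2 points in YAP KD and -2.37 ± 1.9 points in CTR KD cells. The window after that had 0.752 ± 1.9 points in YAP KD and -8.72 ± 2.1 points in CTR KD cells, a difference of 9.47 ± 2.83 points, opposite in sign, that did not pass the z test. Of the Peg10 windows, the first of these was the only one to pass. Slc38a4, an amino acid transporter, had -13.8 ± 2.56 points in YAP KD and 3.64 ± 2.48 points in CTR KD cells, a difference of -17.4 ± 3.56 points. In the other direction, Mcts2, an imprinted retrogene, had 7.49 ± 2.04 points in YAP KD and -5.37 ± 2.58 points in CTR KD cells, a difference of 12.9 ± 3.29 points. Blcap, whose intron holds an imprinted gene, had 5.45 ± 2.36 points in YAP KD and -6.35 ± 2.43 points in CTR KD cells, and Commd1, which also hosts an imprinted retrogene, 12.8 ± 1.68 and 1.49 ± 1.56 points. The windows of Slc38a4, Blcap and Commd1 are near internal starts as well.

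Among other genes, Slc4a5 differed by -18.1 ± 4.5 points, Slc26a5 by -16.3 ± 3.35 points and Fkbp6 by -15.1 ± 3.29 points, by the same z test. The positive differences were led by Nefm at 15.9 ± 3.84 points and by Klb, the co-receptor beta-Klotho, at 15.2 ± 3.71 points. At Klb the window centred 124 bp upstream of the start had -2.6 ± 2.68 points in YAP KD and -17.8 ± 2.57 points in CTR KD cells. The window centred 126 bp downstream had -12.1 ± 2.85 points in YAP KD and -12.3 ± 2.77 points in CTR KD cells, with no such gap. Gm2382, in repeated sequence, had -0.07 ± 2.18 points in YAP KD and -13.9 ± 1.96 points in CTR KD cells.

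**Figure D4:**
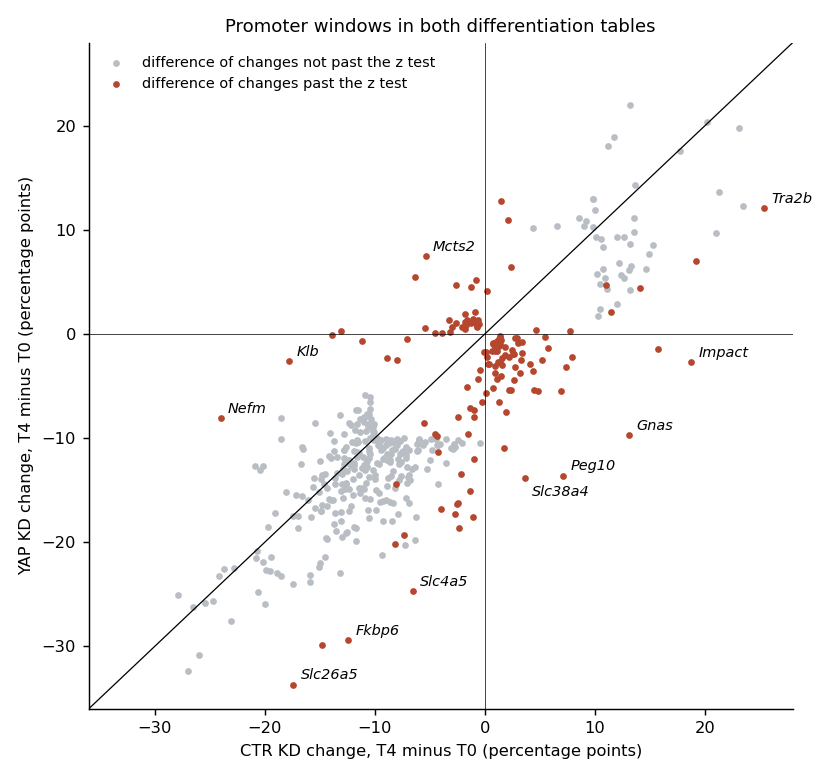
Change over differentiation in YAP KD cells (vertical axis) against that in CTR KD cells (horizontal axis), in percentage points, for promoter windows listed in both tables that were a DMR in either or passed the z test of the difference (red). The diagonal marks equal change. Of the 149 red windows, 108 lie below it, with Gnas, Impact and Peg10 farthest off.

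The knockdown itself left few promoter DMRs at either time. In undifferentiated cells 11 of 31630 promoter windows (0.0348%) were DMRs between YAP KD and CTR KD at T0, against 0.0867% of all windows. Methylation was higher in YAP KD cells at 8 of them (0.0676% of all windows were higher) and lower at 3 (0.019% of all windows were lower). They lay at 8 genes. Peg10 was higher in YAP KD cells by 16.1 ± 2.79 points, Gnas by 13.4 ± 3.42 points and Impact by 10.4 ± 1.88 points, in the windows named above. Cyp2r1, a vitamin D hydroxylase, was higher by 12.7 ± 2.75 points just upstream of its start, Gm10237 by 12.3 ± 2.75 points, Slc26a5 by 11.1 ± 2.44 points and Inpp5f, an imprinted inositol phosphatase gene, by 10 ± 1.96 points. The Gnas, Slc26a5 and Inpp5f windows are near internal starts. Mcts2 alone was lower, in 3 touching windows, with -12 ± 1.77 points in the leading one. Of the 8 genes, 5 (Peg10, Gnas, Impact, Inpp5f and Mcts2) were on the imprinted list. Of the 36 listed genes with a promoter window at T0, 4 were higher in YAP KD cells (11.1%) and 1 was lower (2.78%), against 0.0703% and 0.01% of all 9958 genes. The list was drawn up with imprinting in view from earlier results, so these counts too are descriptions. Because T0 differences enter the differences of changes, they are not separate from the z test counts above.

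After differentiation the direction was the other. At T4, 12 of 28082 promoter windows (0.0427%) were DMRs between YAP KD and CTR KD cells, against 0.32% of all windows. All of the 12 were lower in YAP KD cells (0.292% of all windows were lower) and 0 were higher (0.028% of all windows). They were single windows at 12 genes, of which the 10 with the largest differences are named. Rnf157, a neuronal ubiquitin ligase, had -17.8 ± 3.48 points in a coding exon near an internal start, and Gm16380 had -14.3 ± 3.08 points. Slc38a4 had -11.5 ± 2.49 points, Gm13212 -11.1 ± 1.75 points and Impact -10.9 ± 2.53 points. Adad2, a testis gene, had -11.5 ± 3.24 points across its start, Olfr214, an olfactory receptor, -10.8 ± 2.75 points and Cela1, an elastase, -10.6 ± 2.89 points. Gm6996 (-11.6 ± 3.04 points) and Tra2b (-11 ± 2.49 points) lie in repeated sequence. Impact was the gene named in both, at 10.4 points at T0 and -10.9 points at T4. The T4 values of the other imprinted windows named at T0 were -9.42 ± 3.41 points at Gnas and -4.62 ± 2.47 points at Peg10. At Inpp5f and Mcts2 they were -2.44 ± 2.12 and -1.65 ± 2.63 points. None of these was a DMR at T4, and at each the T0 difference was the larger in size. With q at or below 0.01, the share of promoter windows called at T4 was 0.0249%. At the same time the median difference of a promoter window was -0.0571 points at T4 and 0.0305 points at T0, and 95% of promoter windows lay within 1.76 points at T4 and 1.81 points at T0.

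**Figure D5:**
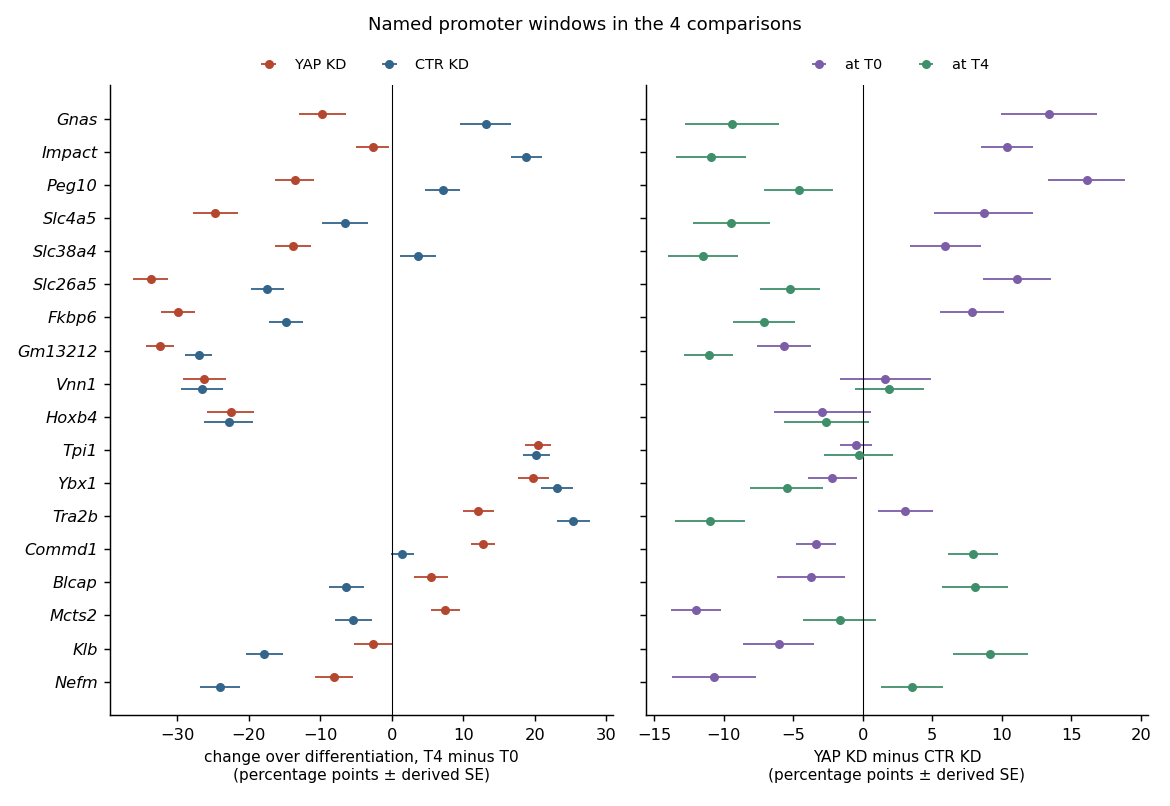
Left, change over differentiation (T4 minus T0) in YAP KD (red) and CTR KD (blue) cells for 18 named promoter windows; right, the YAP KD minus CTR KD difference of the same windows at T0 (purple) and T4 (green). Points are percentage points in the deposited tables and bars the derived SE, and the windows of Tra2b lie in repeated sequence. Gnas, Impact and Peg10 passed the DMR threshold at T0, above 0, and at T4 only Impact of the 3 did, below 0.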

How the data were processed

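Methylation was measured by bisulphite sequencing of DNA captured with a targeted enrichment kit in 8 samples, 2 for each of 4 groups. The authors trimmed the reads with Trim Galore, mapped them to mm9 with Bismark and Bowtie2, left out thinly covered positions and compared groups with methylKit over windows. The deposited tables give, for each window and each of 4 group comparisons, the p-value and q-value from the authors with the difference in percentage points, and hold no level or read number per sample. Depth and precision per sample are therefore unknown. All values here therefore rest on the authors' own comparisons, and no group comparison could be fitted again from samples. The column headers do not name a direction. That positive means higher at T4 in the differentiation tables follows the study's description, which gives losses as the larger share, and was not settled by the data. The knockdown tables were then set relative to these: in the 37980 windows that every table lists, the knockdown difference at T4 less that at T0 correlated at 0.989 with the YAP KD less the CTR KD change, and 93.4% closed within 0.5 points, against 22.2% with the knockdown tables turned round. Turning all 4 tables together would close equally well.

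Windows were assigned to starts of GENCODE M1 transcripts (protein_coding, lincRNA or processed_transcript) on NCBIM37. All windows lay within that build's chromosomes. A promoter was high-CpG where a 500 bp stretch within 1000 bp of the start had a CpG observed over expected ratio over 0.75 and over 55% G+C, low-CpG where none reached 0.48, and otherwise intermediate. A window whose median 31-mer occurred once in the genome was single-copy, and 2.66% of promoter windows were repeated. The derived SE was the absolute difference over the normal quantile of its p-value. The z test was run with Python 3.11.15, numpy 2.4.6, pandas 2.3.3 and scipy 1.17.1. It was tried on simulated windows, independent of each other, with noise drawn from the derived SEs. That trial held no spread between experiments, so it cannot show how the test performs where such spread exists.

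The members, the 15 gene lists and the tests were chosen with earlier results of these data known. Genes named were the 10 largest gains and losses per differentiation comparison, up to 10 per direction per knockdown comparison, up to 4 per list past the DMR threshold, the 5 largest differences of changes in each direction, and Nanog, Yap1, Dnmt3a, Dnmt3b, Dnmt3l and Lin28a, with touching windows merged. The text gives those that describe each comparison. List symbols were matched to GENCODE names, or through RefSeq synonyms. Alternatives were other q and difference limits, non-overlapping, single-copy, autosomal or commonly listed windows, 500 bp, a limit on the SE, doubled SEs and, added after seeing the data, gene 5′ ends alone.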

Additional observations from a re-analysis of the deposited data

Results flagged for a closer look

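The 10 promoter windows below, 1 per gene, had the largest differences between the YAP KD and the CTR KD change over differentiation that passed the z test with derived SEs. The differences, YAP KD minus CTR KD, were -22.8 points at Gnas, -21.5 at Impact, -20.7 at Peg10, -18.1 at Slc4a5 and -17.4 at Slc38a4, and 15.9 points at Nefm, 15.2 at Klb, 13.8 at Gm2382 (repeated sequence), 12.9 at Mcts2 and 11.8 at Blcap. None passed with doubled SEs. The spread between experiments was not tested.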

How the results depend on the processing

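No paired analysis was possible because the tables hold no values per sample, and leaving out replicates or another coverage minimum could not be run either. Of 66 alternative values over 7 results, 48 stayed within 1.5 times the main share, or for gain shares within its 95% interval, and 18 did not. The share of promoter windows that were DMRs, without a minimum difference, was 8.58% (YAP KD differentiation), 7.5% (CTR KD differentiation), 0.202% (knockdown at T0) and 0.484% (knockdown at T4), and with a minimum of 20 points 0.152%, 0.0872%, 0% and 0% in the same order. At T4 it was 0.0249% with q at or below 0.01 and 0.0266% within 500 bp. The gain share was 19.7% in YAP KD and 29.9% in CTR KD cells without a minimum, 4.65% and 29.6% at 20 points, and 3.51% and 8.7% at gene 5′ ends, an alternative added after seeing the data. The share past the z test was 0% with doubled SEs, where 60 promoter windows had an unadjusted p under 0.05, and 0.176% at an adjusted p of 0.01. The causes were not tested.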

Other observations

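Promoters shared by neighbouring genes were described apart. Windows within 1000 bp of starts of 2 or more coding genes were DMRs in 0.297% of cases in YAP KD cells and 0.211% in CTR KD cells, against 1.35% and 1.03% where a single coding gene was near. Their median absolute change was 0.335 points in YAP KD and 0.339 points in CTR KD cells, against 0.442 and 0.433 points.

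Promoter windows in repeated sequence were DMRs in 7.1% of 859 cases in YAP KD cells and 5.8% of 896 in CTR KD cells, against 0.999% and 0.759% of single-copy windows. Promoter windows of long noncoding genes were DMRs in 1.61% of 1246 cases in YAP KD cells and 1.48% of 1349 in CTR KD cells. Over the 19 autosomes the promoter share ran between 0.477% on chromosome 19 and 2.25% on chromosome 18 in YAP KD cells, and between 0.179% on chromosome 19 and 1.67% on chromosome 18 in CTR KD cells.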
